A study of Prunus persica with 4 samples.

Results

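The peach genome carried 6 candidate miRNA loci whose 5′ arm sequence was the same, base for base, as a conserved member of the miR169 family, and these loci are described here: miRC65, miRC81, miRC82, miRC102, miRC105 and miRC107. They were picked from the 186 candidates in the deposited table by comparing the listed 5′ arm sequence (5p) of each candidate with the 4 miR169 sequences in the study's list of conserved miRNAs. All 6 met that rule, and none of the other 180 candidates did. The identity of the 5p to miR169 is therefore what chose the loci and is not a result. By the study's methods, reads that matched known miRNAs did not go into the search for candidates, which conflicts with the presence of these sequences in the candidate table, and the sources used here do not resolve it.

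The reads came from 1 small RNA library of *Prunus persica* cv. Lovell, the cultivar behind the peach reference genome. Young leaves, young stems and flower buds of garden-grown trees were mixed before RNA was taken, so no read can be given to a tissue. The study names no treatment of the trees. There was no second library, and no value below has a replicate error. A further 3 libraries, 1 each from leaves, stems and flowers, captured cleaved mRNA ends (degradome sequencing) and were not analysed here.

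In plants, a miRNA is cut by a Dicer-like enzyme from the stem of a hairpin precursor as a duplex of 2 short strands. One strand, the mature miRNA, is loaded into an ARGONAUTE protein and guides the cleavage of complementary mRNAs, while the other, the miRNA*, is mostly lost. In Arabidopsis the first base of a small RNA is one of the features that sort it among ARGONAUTE proteins, and AGO1 mainly holds those that begin with uracil. The miR169 family is best known for cleaving mRNAs of NF-YA, the subunit of the trimeric factor NF-Y that reads the CCAAT box in promoters. In Arabidopsis this module acts in responses to drought and to nitrogen shortage, and in petunia and snapdragon a miR169 gene shapes the floral whorls.

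The 6 loci listed 2 distinct 5p sequences, both of 21 nt. They are printed from the deposited table with T for U, 5′ to 3′, and the capitals mark bases 2 to 8, the seed.

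miRC105 and miRC107, 5p: cAGCCAAGgatgacttgccgg
miRC65, miRC81, miRC82 and miRC102, 5p: tAGCCAAGgatgacttgcctg

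The seed was the same in both. Counted from the 5′ end, the 5p of miRC105 and miRC107 differed from that of the other 4 loci by C1T and G20T, and the other 19 of 21 positions were identical. The bases from 2 to 19 thus formed a shared run of 18 nt. The difference at the first position separates a sequence that begins with cytosine from one that begins with uracil.

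The precursors of the 6 loci are given next, because their arms and loops carry the comparisons that follow. Capitals mark the listed 5p and, where a sequence was listed for the 3′ arm (3p), that sequence too.

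miRC65: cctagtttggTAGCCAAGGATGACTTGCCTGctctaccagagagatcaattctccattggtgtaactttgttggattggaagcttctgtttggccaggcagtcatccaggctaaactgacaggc
miRC81: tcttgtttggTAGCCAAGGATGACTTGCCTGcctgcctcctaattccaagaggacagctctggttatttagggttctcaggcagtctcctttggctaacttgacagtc
miRC82: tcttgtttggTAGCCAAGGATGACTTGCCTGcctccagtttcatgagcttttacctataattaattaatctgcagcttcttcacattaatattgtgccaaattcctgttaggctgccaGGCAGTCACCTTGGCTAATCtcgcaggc
miRC102: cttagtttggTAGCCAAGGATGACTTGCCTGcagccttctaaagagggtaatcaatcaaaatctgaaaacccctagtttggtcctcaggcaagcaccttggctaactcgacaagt
miRC105: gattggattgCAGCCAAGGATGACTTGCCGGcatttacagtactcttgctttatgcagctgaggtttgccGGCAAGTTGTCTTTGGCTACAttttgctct
miRC107: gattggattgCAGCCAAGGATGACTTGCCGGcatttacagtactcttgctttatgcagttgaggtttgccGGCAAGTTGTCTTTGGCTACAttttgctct

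The 6 loci lay on 3 scaffolds, and 5 of them were read from the plus strand. Positions are those of the deposited table, counted from 1. The genome version behind them is not given in the sources used here, so no gene annotation was joined and it was not asked whether a locus lies in a gene, an exon or an intron. miRC65, the locus of the minus strand, covered bases 23847937 to 23848060 of scaffold 2, and its nearest candidate on that scaffold was 1061309 nt away. The other 5 loci each had another candidate within 100 kb. So did 51 of the 177 other candidates that share a scaffold with a candidate, and the difference was not tested.

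On scaffold 3, miRC81 (21677982 to 21678089) and miRC82 (21678261 to 21678406) were neighbours on the plus strand with 171 nt between them, so that both hairpins fit into 425 nt. In this pair all 10 bases before the 5p were identical, while the loops matched at 37 of 87 aligned positions. The other pairs among the 4 loci that list this 5p shared 7 to 9 of those 10 bases. The loop identity of miRC81 with miRC82, 42.5%, was the lowest of the 6 pairs among these 4 loci. miRC102 stood apart from the other miR169 loci at bases 10137181 to 10137295 of scaffold 4, plus strand. Its only neighbour within 100 kb was miRC115, on the minus strand 3760 nt away, which listed a 3p sequence alone and did not hold the shared run of 18 nt.

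miRC105 (16648995 to 16649094) and miRC107 (16676120 to 16676219) were also on the plus strand of scaffold 4, 6511699 nt and more beyond miRC102 and 27025 nt from each other. They stood in a row of 5 candidates, all on the plus strand, that ran from miRC104 over miRC105, miRC106 and miRC107 to miRC108 within 45893 nt. The gaps along the row were 3141, 15411, 11520 and 15319 nt. The row alternated, because miRC104 and miRC106 shared one pair of arm sequences and miRC105 and miRC107 another. Over all 6 loci the median gap to the nearest candidate was 3451 nt, against 334756 nt for the 177 other candidates with a neighbour on their scaffold. This is a description, since neighbours share the gap between them and are not independent points. Rows as dense as this one, with 4 other candidates within 100 kb, were also found outside the miR169 loci, at miRC13 to miRC17 on scaffold 1.

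**Figure D1:**
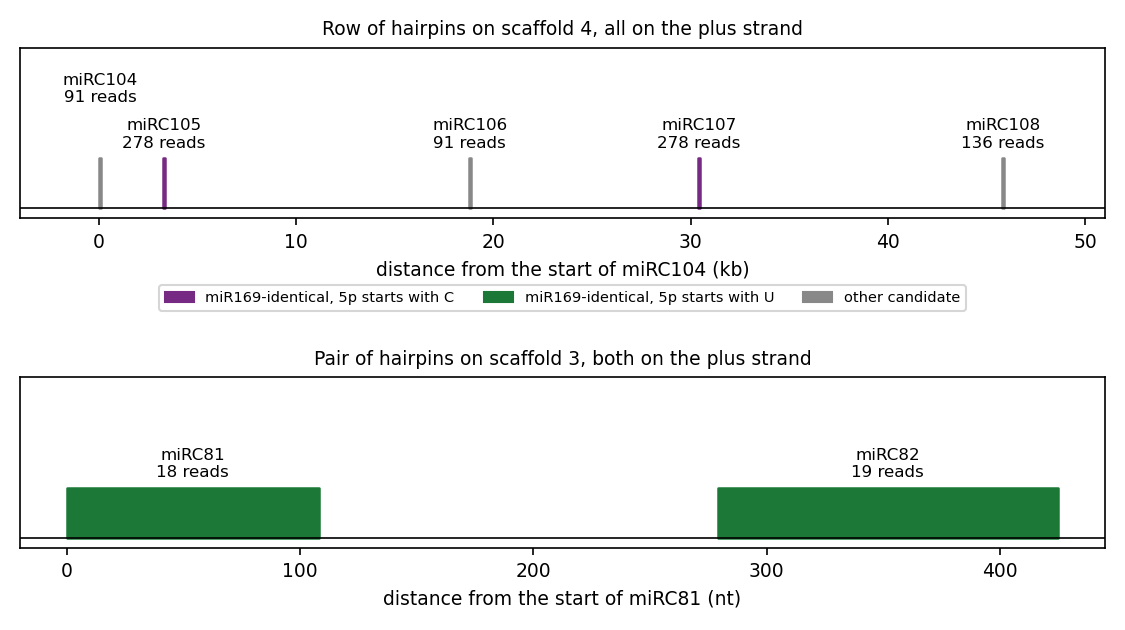
Arrangement of the neighbouring hairpins, with distance along the scaffold on the x axis (kb from miRC104 above, nt from miRC81 below) and the reads of each precursor over its bar. miRC105 and miRC107, with 278 reads each, alternate with miRC104, miRC106 and miRC108 in a row of 45893 nt, and miRC81 and miRC82 lie 171 nt apart.

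The other candidates of the row had a 5p close to miR169 but not identical to a listed member. Their sequences are shown with the shared run of 18 nt in capitals, together with miRC135 on scaffold 5, the only candidate outside the row and the 6 loci whose listed arm held that run.

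miRC104 and miRC106, 5p: tgAGCCAAGGATGACTTGCCa
miRC135, 5p: tAGCCAAGGATGACTTGCCt
miRC105 and miRC107, 5p: cAGCCAAGGATGACTTGCCgg
miRC65, miRC81, miRC82 and miRC102, 5p: tAGCCAAGGATGACTTGCCtg

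In miRC104 and miRC106 the run began at base 3 of the 5p, 1 base later than in the 6 loci, so the seed of this pair, in capitals in tGAGCCAAggatgacttgcca, differed from that of the 6 loci. Altogether 9 of the 186 precursors held the run, each in a listed arm, and no precursor held it on the other strand. In miRC108, whose 5p was tGAGCCAAgaatgacttgctg, the run was interrupted. The 5p of miRC135 had 20 nt and was contained whole in the 5p of the 4 loci that begin with uracil.

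The table gives raw read counts, without normalization, for the whole precursor and for each listed arm. Summed over all candidate precursors the table lists 15705 reads, of which 630 (4.01%) are listed at the 6 loci and 556 of these at miRC105 and miRC107. Such a sum counts a sequence again at each locus that lists it, so no interval is given for it.

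The 5p that begins with cytosine had 261 reads at miRC105 and 261 reads at miRC107. The 5p that begins with uracil had 18 reads at each of miRC65, miRC81, miRC82 and miRC102. The counts were thus equal wherever the sequence was equal, and the loci of a set cannot be told apart by their 5p. With each sequence taken once, the cytosine form had 14.5 times the reads of the uracil form (exact 95% interval 8.995 to 24.9). Whether a count covers length variants of the listed sequence is not stated, and the ratio depends on it. With each distinct arm sequence taken once, the 6 loci came to 292 reads, which is 2.32% (95% Wilson interval 2.07 to 2.60%) of the 12570 reads of all candidates counted in that way. The 5p and 3p of miRC105 and miRC107 made up 273 of the 292 reads (93.5%, interval 90.1 to 95.8%). Intervals here cover counting error only, because reads from an amplified library are not independent molecules.

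By reads on the precursor, miRC105 and miRC107 shared rank 16 of 186, with 278 reads each. miRC82 and miRC102 shared rank 71 with 19 reads, and miRC65 and miRC81 shared rank 77 with 18 reads. The median over the other 180 candidates was 13 reads. The 4 loci that begin with uracil list one 5p sequence, so they could not be ranked by it at any depth.

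The other arm of the hairpin was listed at 3 of the 6 loci, against 43 of the other 180 candidates (23.9%). These shares were not tested against each other, because the 6 loci share sequences and are not independent. At miRC105 and miRC107 the same 3p sequence of 21 nt had 12 reads, and a further 5 reads of each precursor were on neither listed arm. The 3p thus took 4.40% of the 273 arm reads (interval 2.53 to 7.52%). miRC82 had 1 read on its 3p of 20 nt. Its arm share was not measured, since the 18 reads of its 5p are listed at 4 loci alike.

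No 3p was listed at miRC65, miRC81 and miRC102. At miRC65 and miRC81 all 18 reads of the precursor were on the 5p. How many of the 18 reads came from each locus is unknown, so no limit on the 3p share of a single locus can be given. At miRC102, 1 of the 19 reads lay on the precursor outside the listed 5p. The 3p read of miRC82 is the only read in the table that is listed at 1 of these 4 loci with a sequence of its own.

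**Figure D2:**
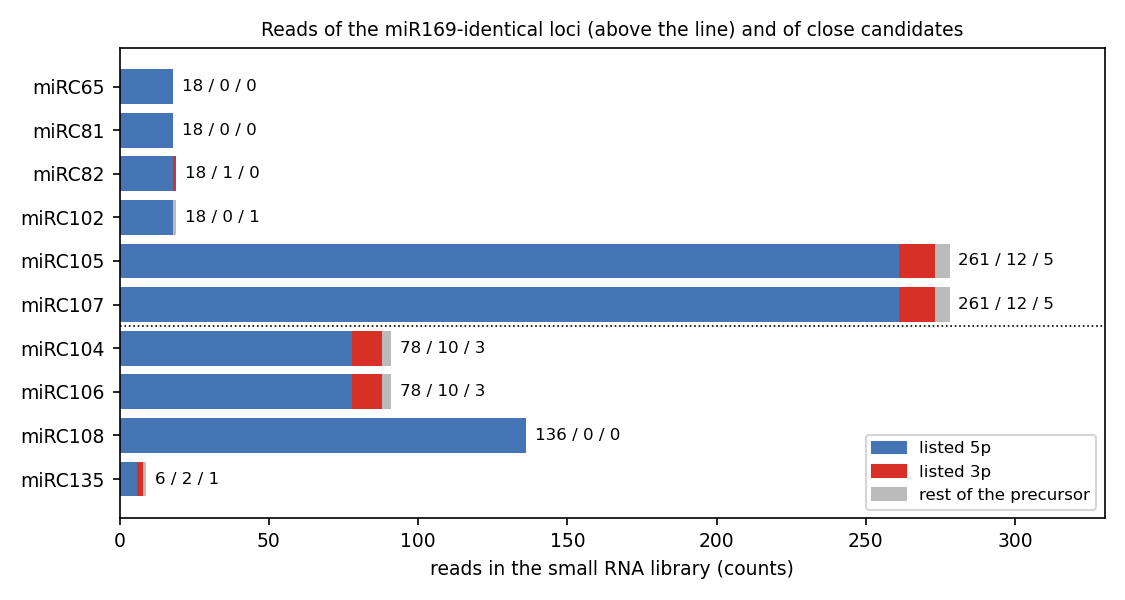
Reads on the listed 5p, the listed 3p and the rest of each precursor, as counts on the x axis, for the 6 miR169-identical loci above the dotted line and 4 close candidates below it. The numbers beside each bar give these 3 counts in that order. miRC105 and miRC107 have identical bars of 261, 12 and 5 reads, and the other 4 loci have 18 reads on the 5p each.

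Among the close candidates, miRC104 and miRC106 had 78 reads on the 5p and 10 on the 3p at each locus, again equal at both. Their 3p share was 11.4% (interval 6.29 to 19.7%), above the 4.40% of miRC105 and miRC107. The 2 intervals overlapped, which does not decide whether the shares differ, and the difference was not tested. miRC108 had 136 reads, all on the 5p, and miRC135 had 9 reads, with 6 on the 5p and 2 on the 3p. In the row on scaffold 4 the cytosine form of miR169 was therefore the most abundant of the 3 listed 5p sequences.

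The sequences opposite to the 5p were read from the deposited structures as the strand that would pair with it in a duplex with 2 unpaired bases at each 3′ end, the usual trace of a Dicer-like cut. They are printed in full, with the runs that all 6 loci shared in capitals.

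miRC65: GGCAgtcatccaGGCTAaa
miRC81: GGCAgtctcctttGGCTAact
miRC82: GGCAgtcaccttGGCTAatc
miRC102: GGCAagcaccttGGCTAact
miRC105 and miRC107: GGCAagttgtctttGGCTAca

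The listed 3p of miRC105, of miRC107 and of miRC82 each began and ended exactly where this duplex placed the opposite strand. These are 2 distinct sequences only, since miRC105 and miRC107 list the same 3p, and the 3p of miRC82 had 1 read. The listed miRNA* sequences were thus those of a duplex with 2-nt overhangs. The study chose its candidates by published criteria for miRNAs and with MIREAP, so this fit may follow from that choice. No comparison with other candidates is given here. For miRC65, miRC81 and miRC102 the strand is placed by the fold alone, without a read. It was 19 to 21 nt long over the 6 loci and kept 4 bases at its start and 5 bases near its end in all of them. The strand is placed by pairing with a 5p that is nearly the same in all 6 loci. Its kept bases are therefore in part set by how the loci and the strand were chosen.

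The opposite strand varied more than the 5p. Between the 4 loci with the same 5p, 65.0 to 81.0% of aligned positions were identical in the opposite strand, with a median of 77.5% over 6 pairs. The lowest value was for miRC65 with miRC102, and the highest was shared by miRC81 with miRC82 and miRC81 with miRC102. In the loops between the 2 strands, 42.5 to 50.6% of aligned positions were identical over the same pairs. Against these 4, miRC105 and miRC107 had 63.6 to 72.7% in the opposite strand and 37.9 to 50.0% in the loop. In both regions the range overlapped the range within the 4. Over the whole precursor the ranges did not overlap, with 62.2 to 68.1% within the 4 and 52.7 to 60.2% between the sets. The precursor includes the 5p, by which the sets were formed. Of the 10 bases before the 5p, 7 to 10 were identical within the 4 and 4 to 5 between the sets. Whether the loops are related was not tested.

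**Figure D3:**
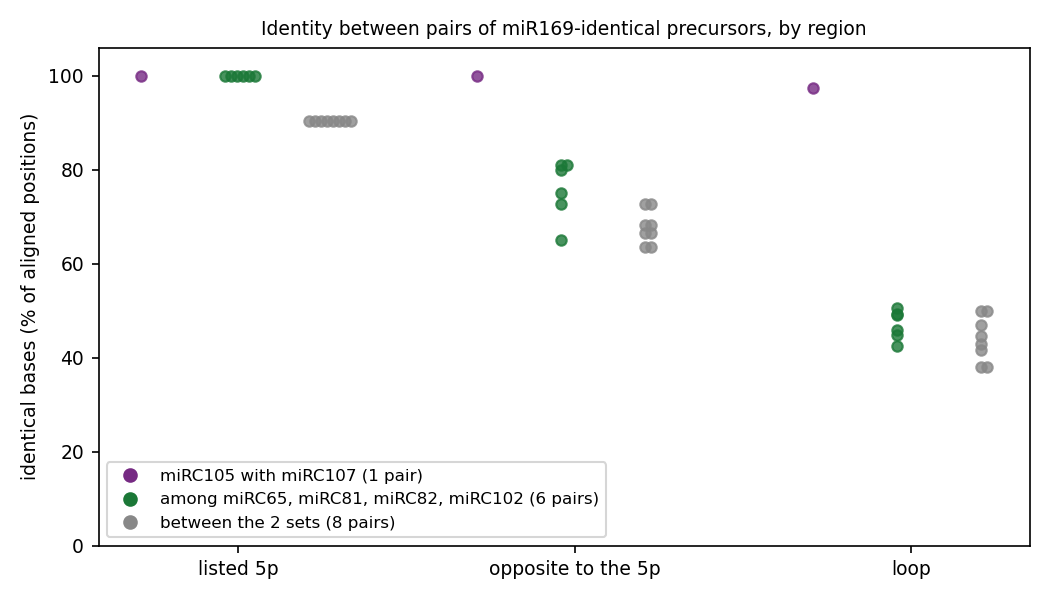
Identical bases as a percentage of aligned positions (y axis) for each of the 15 pairs of precursors, in the listed 5p, the strand opposite to it and the loop (x axis). The pair of miRC105 and miRC107 is at or near the top in every region. The 6 pairs among the other 4 loci are at 100% in the 5p and between 42.5 and 50.6% in the loop.

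miRC105 and miRC107 were near copies. Their precursors of 100 nt differed at 1 base only, C59T counted from the 5′ end of the precursor, in the loop of 39 nt. In the deposited structures this base formed a G-C pair in miRC105 and was unpaired in miRC107. The deposited folding free energy, as its size, was 48.6 kcal/mol in miRC105 and 47.5 kcal/mol in miRC107. Folding them again with RNAfold gave 47.9 and 46.3 kcal/mol, so the sign of the difference was the same in both programs. miRC104 and miRC106, which alternate with them along the scaffold, were likewise identical at 93 of 94 positions and differed by T56A. Between miRC105 and miRC104 the precursors had 70 of 105 aligned positions in common.

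Every one of the 6 precursors folded into a stem with the 5p on its 5′ side. The 5p began at base 11 in all 6, and also in 92 of the 112 candidates with a listed 5p, so this position was common over the table. Between 18 and 19 of the 21 bases of the 5p were paired in the deposited structures. Over the 6 loci, 16 of 126 bases were unpaired. The other 180 candidates had 0 to 7 unpaired bases in the more abundant arm, with a median of 3, and the median over the 6 loci was also 3.

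The unpaired bases were not at the same place in every locus. In miRC105 and miRC107, base 1 and bases 11 and 12 were unpaired. In the other 4 loci base 1 was paired. Base 16 was unpaired in miRC65, miRC81 and miRC82, and base 10 in miRC81, miRC82 and miRC102. miRC65 alone had bases 6 and 7, inside the seed, unpaired. Of the 21 positions, 13 were paired in all 6 loci, among them bases 2 to 5 and bases 17 to 21. When the precursors were folded again with RNAfold, bases 11 and 12 of miRC105 and miRC107 formed G-U pairs, and the other 4 loci kept every unpaired position.

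**Figure D4:**
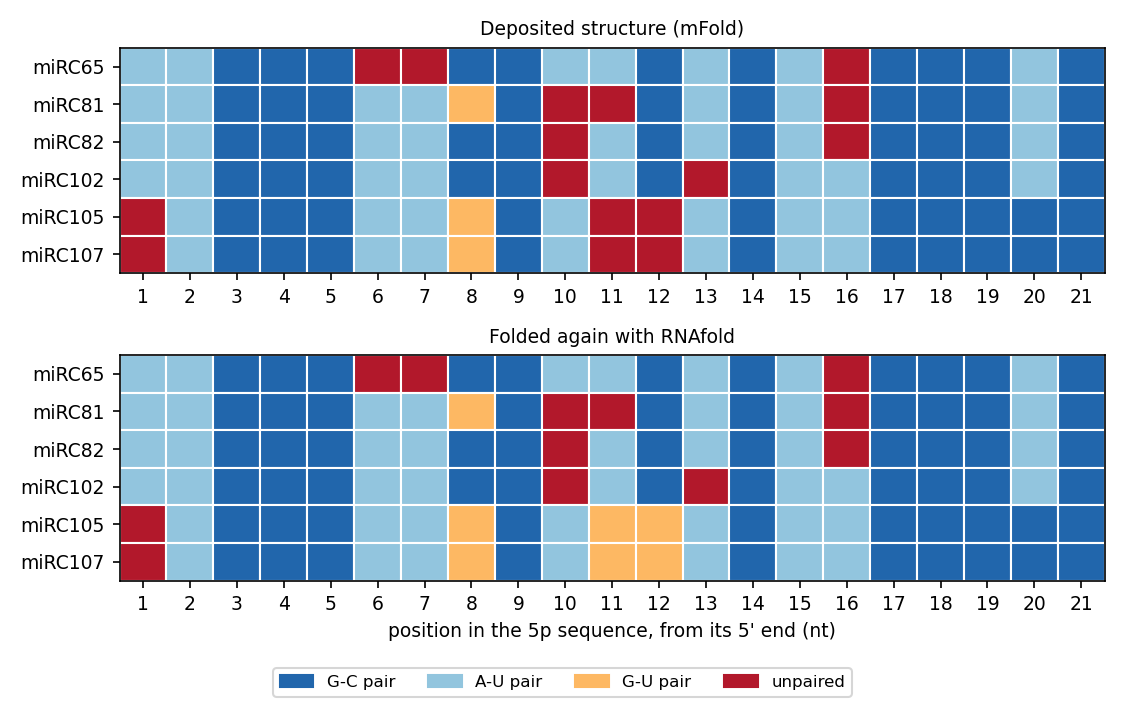
Pairing of each base of the 5p (x axis, position from the 5′ end) in the 6 precursors, in the deposited structures above and in RNAfold structures below. Red marks an unpaired base and orange a G-U pair. Base 1 is unpaired in miRC105 and miRC107 only, and their bases 11 and 12 change from unpaired to G-U pairs between the 2 programs.

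The deposited folding free energies of the 6 precursors lay within a narrow range. As sizes they were 48.3 kcal/mol in miRC65, 43.8 in miRC81, 45.4 in miRC82 and 45.2 in miRC102, beside 48.6 in miRC105 and 47.5 in miRC107. Their median was 46.5 kcal/mol, against 47.4 kcal/mol over the other 180 candidates, whose smallest was 18.33 and largest 171.23 kcal/mol. The miR169 precursors thus stood in the middle of the candidates, at ranks 82 to 114 of 186 from the most stable down. They differed more in length than in energy, from 100 nt in miRC105 and miRC107 to 146 nt in miRC82, and the loop had 87 nt in miRC82 and 39 nt in the first pair.

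Per 100 nt of precursor, the size of the energy was 48.6 kcal/mol in miRC105 and 47.5 kcal/mol in miRC107, at ranks 34 and 39. It was 38.95, 40.6 and 39.3 kcal/mol in miRC65, miRC81 and miRC102, and lowest in miRC82 with 31.1 kcal/mol, at rank 118. The median was 39.9 kcal/mol over the 6 loci and 36.4 kcal/mol over the other candidates. The share of G and C was 43.8 to 49.1% in the 6 precursors, against a median of 37.5% over the others, and whether it bears on the energies was not tested. No difference between the 6 loci and the rest was tested, because each of the 6 shares its 5p with at least 1 other and all were selected as hairpins.

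**Figure D5:**
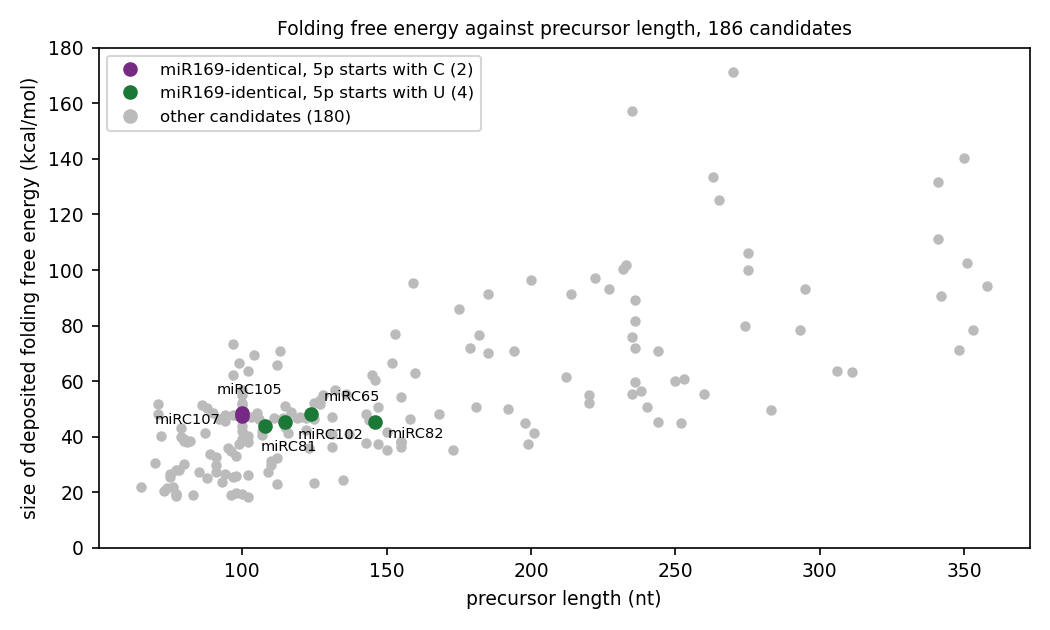
Size of the deposited folding free energy (kcal/mol, y axis) against precursor length (nt, x axis) for all 186 candidates, with the 6 miR169-identical loci in colour. These lie between 43.8 and 48.6 kcal/mol at lengths of 100 to 146 nt, among the other candidates of that length.

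The study looked for targets by their cleaved ends in the degradome libraries, which were not analysed here. Only the names of the transcripts it lists for these sequences are given, without counts or scores. For the 5p of miRC105 and miRC107 the list names ppa006634m and ppa012173m, annotated as the A1 and A7 subunits of nuclear factor Y, the textbook targets of miR169. For the 5p of miRC65, miRC81, miRC82 and miRC102 it names ppa012173m again. Beside it stand ppa008065m, a jasmonate-ZIM-domain protein of the kind that represses jasmonate responses, ppa006028m and ppa007941m, both NAC domain proteins of a plant family of transcription factors, and ppa011476m, of the family of chalcone-flavanone isomerase, an enzyme of flavonoid synthesis. All of these transcripts are also named for the 5p of miRC135. Among those named for the 5p of miRC104 and miRC106 are ppa006028m and ppa007941m. Neither ppa006634m nor ppa012173m is named for the 5p of miRC104, miRC106 or miRC108. For miRC108 the list names ppa010894m alone, which is also named for miRC104 and miRC106. The names therefore do not set the 2 forms apart from miRC135, while the nuclear factor Y subunits are missing from the names for the other close candidates. For the 3p of miRC105, which miRC107 lists too, the list names ppa015545m, a glucose-6-phosphate dehydrogenase, the entry enzyme of the oxidative pentose phosphate pathway. Since a target is assigned to a sequence, it cannot be given to one locus of a set.

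The other conserved miR169 sequences of the study fit the same places. The 22-nt form tagccaaggatgacttgcctgc occurred in the precursors of miRC65, miRC81, miRC82 and miRC102, and the 20-nt form agccaaggatgacttgccgg in those of miRC105 and miRC107. None of the 4 listed miR169 sequences fitted any other of the 186 precursors, and the genome outside the precursors was not searched.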

How the data were processed

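Small RNA of 1 mixed-tissue library was sequenced by the authors, who trimmed adaptors, kept reads of 18 to 30 nt, removed reads matching other non-coding RNA, and ran MIREAP with default parameters on the peach genome. Their methods state that reads matching known miRNAs were also kept out of MIREAP, but the 5p of the 6 loci equal listed conserved miR169 sequences. The genome version is not given in the sources used here. The deposited table holds raw read counts per precursor and per listed arm, not normalized. Its columns name no sample, and the counts were taken as those of this library because it is the only small RNA library among the samples. It also holds folding free energies and structures, which the authors made with mFold, in kcal/mol as another kind of value computed from sequence.

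Loci, arms, spacing and pairing were read from the table with python 3.11.15 and numpy 2.4.6. Precursors were folded again with RNAfold of ViennaRNA 2.7.2. Pairs were aligned globally (match 1, mismatch -1, gap -2). Shares have Wilson or exact 95% intervals from scipy 1.17.1. Alignment and duplex code was checked on made sequences. Figures used matplotlib 3.10.9. From the study's supplements only sequences and target names were taken. With 1 library there was no test between groups.

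The loci, the alternatives and the close candidates to be named were chosen with earlier results of these data known. Named candidates are the 6 loci, those within 100 kb of one, those with a 5p close to theirs, and miRC13 to miRC17 as a yardstick chosen after their values were seen.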

Additional observations from a re-analysis of the deposited data

How the results depend on the processing

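Counting each distinct arm sequence once, in place of summing precursors, changed the reads on the 6 loci to 292 from 630 and their share of all candidate reads to 2.32% from 4.01%, because 4 of the loci list one 5p and the other 2 list one 5p and one 3p. The other 13 of 15 alternatives moved a share or a median by less than its interval or the spread over loci or pairs, and a count by at most 1.5 times, a limit that the highest group count and the lowest site count reached. Reads on listed arms alone came to 619, and the 3p share at miRC105 and miRC107 was 4.32% of all precursor reads. The miR169 group had 9 candidates by the shared run of 18 nt and 7 by up to 3 substitutions or containment, against 6. Joining precursors within 1 kb gave 5 sites and within 100 kb 4. With RNAfold the median energy was 45.6 kcal/mol, 39.6 kcal/mol per 100 nt and 42.6 per 100 nt of the trimmed hairpin, with 12 unpaired 5p bases. With G-U pairs counted as unpaired there were 19. The median identity over 15 pairs stayed at 72.7% in the opposite strand, and was 46.0% in the loop and 49.1% with other alignment scores. No paired analysis was possible because the series holds 1 small RNA library, and no replicate could be left out. Depth limits the ratio of the 2 forms through the 18 reads of the uracil form, and the listed counts do not separate loci that share a sequence.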

Other observations

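The 20-nt 5p of miRC135 had 6 reads and occurred in 5 precursors, of which 4 were miRC65, miRC81, miRC82 and miRC102. A read of this sequence fits those 4 loci as well as miRC135. At miRC65, however, the 21-nt 5p was given all 18 reads and 0 lay elsewhere on the precursor. Either the 6 reads are inside the 18, so that a count covers length variants of the listed sequence, or they were left out at miRC65. The deposited table does not say which, and this was not tested.

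The study's primer for miRC82 has the sequence of its 5p, which 4 of the 6 loci list, and the primer for miRC104 has a sequence listed at 2 loci. By sequence, a quantitative PCR signal under these names fits at least 4 loci and 2 loci. Whether the primers also pick up close sequences, such as the cytosine form or the 5p of miRC135, was not tested.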
